A study of Mus musculus with 7 samples.

Results

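Zinc finger genes were picked out of the table of *Ctcf*-cKO against wild-type testis by name: coding transcript clusters whose gene symbol begins with Zfp, Zscan, Zkscan, Zbtb, Zfhx or Znf. This gave 35 genes out of 3997 coding genes with a symbol, each with a single row. Of these, 10 had a Krüppel-associated box (KRAB) in the table's protein domain column and 25 did not. In the authors' averages *Ctcf*-cKO was below wild-type for 19 of the 35 (lower genes) and above it for 16 (higher genes). The KRAB genes were 5 lower and 5 higher, and the other genes 14 lower and 11 higher. Of all coding rows of the table, 62.1% were lower and 37.9% were higher. *Zfp389* (-2.15 on the log2 scale) had the largest difference among the lower zinc finger genes and *Zfp36l1* (1.46) among the higher ones.

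The study asked what the DNA-binding protein CTCF does in male germ cells. RNA from seminiferous tubules, freed of the tunica albuginea, was hybridized to 1 array per mouse for 3 wild-type and 4 *Ctcf*-cKO mice, aged 12 to 15 weeks. The *Ctcf*-cKO mice carried the transgene Stra8-iCre, 1 floxed and 1 excised *Ctcf* allele (Stra8-iCre-Ctcf f/Δ), and the mice called wild-type were littermates without Cre whose *Ctcf* genotype was f/f, wt/f or wt/wt. The *Stra8* promoter drives Cre in spermatogonia that are about to differentiate and in pre-leptotene spermatocytes, so Sertoli and Leydig cells keep the floxed allele. Because the methods describe a strain in which 1 copy was already excised, cells without Cre have 1 working copy in *Ctcf*-cKO.

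A zinc finger of the C2H2 type folds around a zinc ion held by cysteines and histidines, and proteins with arrays of such fingers form the largest family of mammalian transcription factors. In many of them a KRAB domain at the amino terminus recruits the corepressor TRIM28, which brings in the histone methyltransferase SETDB1 and HP1 proteins and so forms silent chromatin, often on transposable elements. BTB/POZ and SCAN domains instead join zinc finger proteins into dimers or bind corepressors. The genes of KRAB zinc finger proteins lie in clusters that grew by tandem duplication, and several zinc finger genes were first cloned as testis transcripts. A symbol with Zfp records a likeness in sequence and not a shown role in transcription.

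Each value below is the authors' bi-weight average of the log2 signal of a transcript cluster in a genotype, and each difference is the *Ctcf*-cKO average minus the wild-type average, so that a difference of 1 is a linear fold of 2. The deposited table holds 7580 rows, of which 4102 are coding, all of them past the authors' limits of a 2-fold difference and p = 0.05 before adjustment. Every one of the 35 genes therefore had to differ, and the counts describe which genes passed, with no test. No column holds a single array, so no spread between mice could be given. Precision is limited by how few arrays were run. *Ctcf* has no row, so the inactivation itself could not be checked here. A signal is compared only with the signal of the same gene in the other genotype, because probe sets differ in brightness. Where 2 averages of a gene follow each other, the first is that of wild-type, and positions of rows are those of the build mm10.

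Markers of cell types differed with the genotype in the same table. Of 30 marker genes of somatic cells (endothelium, macrophages, peritubular myoid, Sertoli and Leydig cells), 19 had a row and all 19 were higher in *Ctcf*-cKO, by 1.06 to 2.97. Their averages spanned 5.9 to 11.64 in wild-type and 7.02 to 13.03 in *Ctcf*-cKO. Of 27 markers of spermatocytes and spermatids, 16 had a row and all 16 were lower, with differences of -1.60 to -1.02 and averages of 7.74 to 11.39 in wild-type and 6.17 to 10.37 in *Ctcf*-cKO. Of 8 spermatogonial markers only *Kit* had a row (7.81 in wild-type, 10.09 in *Ctcf*-cKO), and Leydig cells also use *Kit*. In such bulk RNA, fewer cells of a type and less RNA per cell cannot be told apart, and the part of these shifts in the values of the zinc finger genes was not tested. Defining markers of the labelled testis tissue were thus measured in both genotypes.

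**Figure D1:**
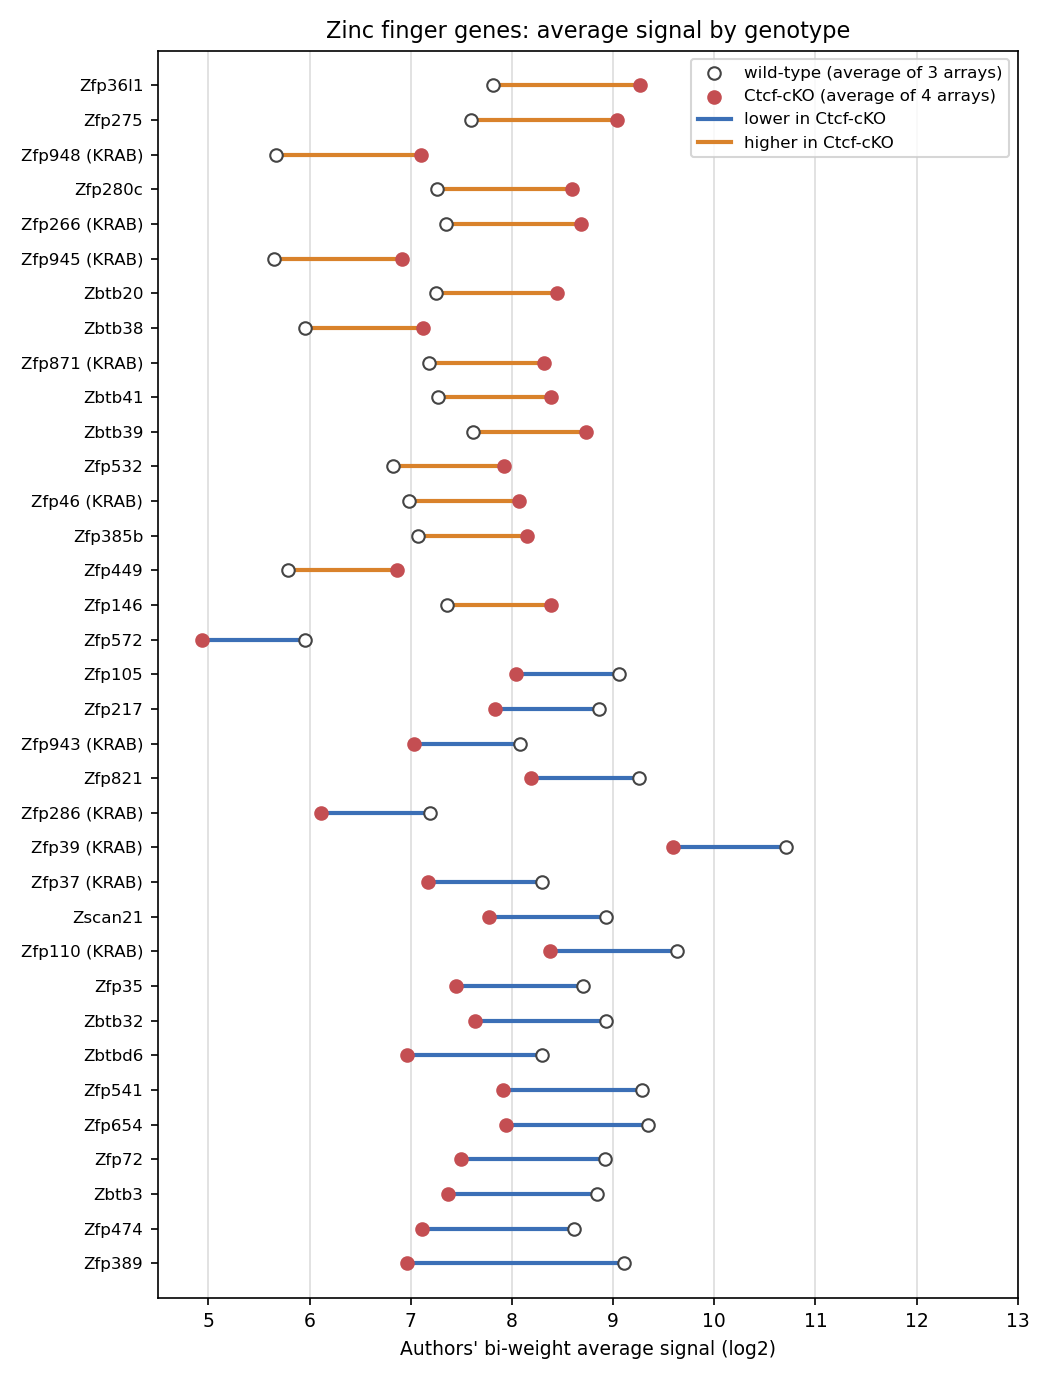
Authors' average log2 signal (horizontal axis) of the 35 zinc finger genes (1 line per gene) in wild-type (open points, average of 3 arrays) and *Ctcf*-cKO (filled points, average of 4 arrays), with no spread because the table holds averages only. Differences run from -2.15 to -1.01 in the 19 lower genes and from 1.03 to 1.46 in the 16 higher genes.

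The plot of averages by genotype orders the 35 genes by their difference. The 19 lower genes had wild-type averages from 5.95 to 10.71, and the 16 higher genes from 5.65 to 7.81. Only *Zfp572* lay under 6 in both genotypes. The median difference of the lower genes was -1.25, against -1.29 for all lower coding rows, and that of the higher genes was 1.155, against 1.33 for all higher coding rows. Past a linear fold of 3 the table had 7.87% of its coding rows lower and 10.1% higher, whereas only *Zfp389* among the 35 zinc finger genes was past it.

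**Figure D2:**
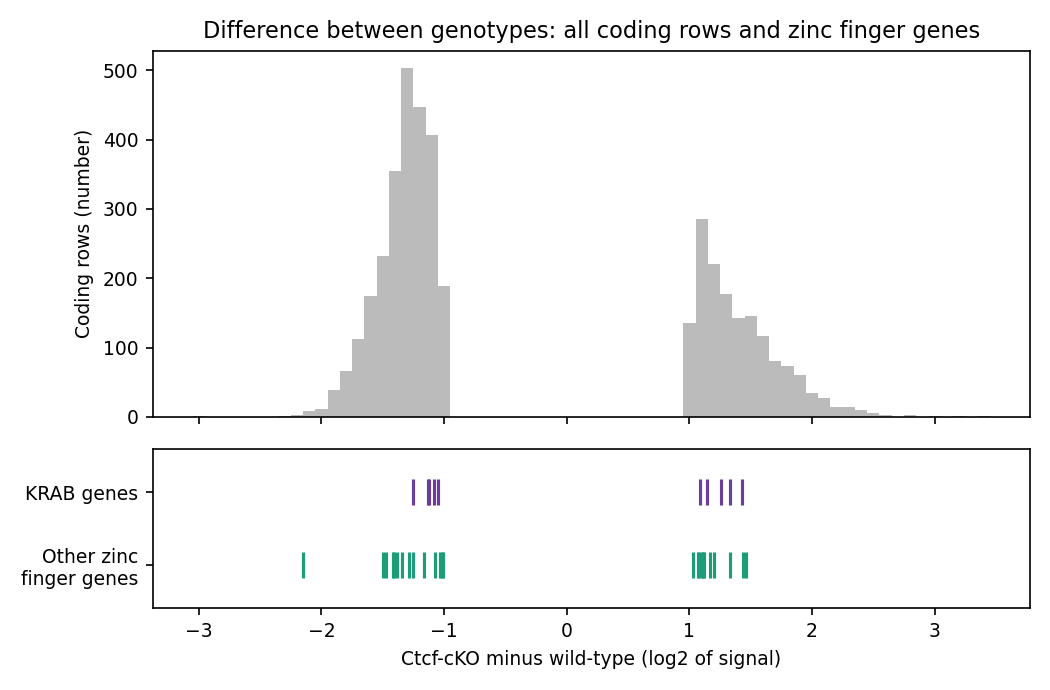
Differences between the authors' average log2 signals (*Ctcf*-cKO minus wild-type) of the KRAB genes, the other zinc finger genes and all coding rows of the table. The gap around 0 is the table's own limit at a linear fold of 2, and the zinc finger genes stay between -2.15 and 1.46.

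Among the 5 KRAB genes that were lower, *Zfp110* had the largest difference. Its signal averaged 9.63 in wild-type against 8.38 in *Ctcf*-cKO, a difference of -1.25, and it lies on chromosome 7 at 12834761 to 12850584 on the plus strand. *Zfp110* encodes a factor that also carries a SCAN domain and was described as a partner of the neurotrophin receptor p75. *Zfp37*, found early as a transcript of testis and brain, had 8.30 in wild-type against 7.17 in *Ctcf*-cKO, a difference of -1.13. *Zfp39* had 10.71 in wild-type against 9.59 in *Ctcf*-cKO, a difference of -1.12. Both genes carry the process spermatogenesis in the table's Gene Ontology column. *Zfp286* had 7.19 and 6.11, a difference of -1.08, and *Zfp943* had 8.08 and 7.03, a difference of -1.05. The differences of all 5 lay between -1.25 and -1.05, with a median of -1.12.

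The sequences before the start sites of *Zfp39* and *Zfp37* are shown because both are KRAB genes with a spermatogenesis annotation and were lower. Their starts have more CpG than the median of 6 over all RefSeq windows. The median was 11 over all windows of the name prefixes and 13 over the listed KRAB genes with a window. Each run holds the 250 bases that precede the RefSeq start, 5′ to 3′ on the strand of the gene in the build GRCm38.p6, with every CG in capitals. They are chr11:58904226-58904475 on the minus strand, with 13 CpG, and chr4:62208547-62208796 on the minus strand, with 23 CpG.
*Zfp39*: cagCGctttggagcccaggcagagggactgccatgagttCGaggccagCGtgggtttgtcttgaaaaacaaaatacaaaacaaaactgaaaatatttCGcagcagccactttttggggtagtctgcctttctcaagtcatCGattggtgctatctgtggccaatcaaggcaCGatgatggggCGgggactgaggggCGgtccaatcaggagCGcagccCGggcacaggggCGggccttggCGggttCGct
*Zfp37*: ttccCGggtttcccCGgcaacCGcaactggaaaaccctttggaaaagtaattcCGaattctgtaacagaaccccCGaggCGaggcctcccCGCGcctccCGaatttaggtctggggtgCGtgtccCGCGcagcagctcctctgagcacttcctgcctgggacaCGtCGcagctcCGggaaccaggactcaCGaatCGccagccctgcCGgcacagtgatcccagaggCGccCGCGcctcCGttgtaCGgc

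The 5 KRAB genes that were higher had differences from 1.09 to 1.43, with a median of 1.26. *Zfp948* led them, with 5.67 in wild-type against 7.10 in *Ctcf*-cKO. *Zfp266*, on chromosome 9 at 20495068 to 20521419 on the minus strand, had 7.35 and 8.68, a difference of 1.33. *Zfp945* had 5.65 and 6.91. The first and last of these lie in the same cluster on chromosome 17, described further on. *Zfp871*, from a further cluster on chromosome 17 (32765496 to 32788287, minus strand), had 7.18 and 8.32. *Zfp46* had 6.98 in wild-type against 8.07 in *Ctcf*-cKO, the smallest difference of the 5 at 1.09.

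On a list of 26 genes for KRAB partners and heterochromatin, which holds *Trim28*, *Setdb1* and the HP1 genes, 2 had a row, *Atrx* and *Uhrf1*. Of all RefSeq protein-coding genes 14.3% had a coding row, and nothing is read from the count of the list. *Atrx*, a chromatin remodeller of heterochromatin on the X chromosome, had 6.84 in wild-type against 8.46 in *Ctcf*-cKO, a difference of 1.62. *Uhrf1*, needed to maintain DNA methylation, had 8.88 and 7.83, a difference of -1.05. Nothing is known here of the genes of the list that have no row, and their levels may or may not have differed.

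The BTB/POZ family had 7 genes in the table, 3 lower and 4 higher. *Zbtb3* had 8.84 in wild-type against 7.37 in *Ctcf*-cKO, a difference of -1.47. *Zbtb32*, a repressor known from lymphocytes, had 8.93 and 7.64, a difference of -1.29. The third lower symbol, *Zbtbd6*, is an older name of *Kbtbd6* in RefSeq, whose protein combines BTB and kelch repeats and works with a ubiquitin ligase. It has no zinc finger, and its averages were 8.30 and 6.96, a difference of -1.34.

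The 4 higher BTB/POZ genes had differences from 1.11 to 1.20. *Zbtb20*, a repressor best known from liver and hippocampus, had 7.25 in wild-type against 8.45 in *Ctcf*-cKO. *Zbtb38*, which binds methylated CpG, had 5.95 and 7.12. *Zbtb41* had 7.27 and 8.39, and *Zbtb39* had 7.62 and 8.73. The domain column also names C2H2 fingers for *Zbtb20*, *Zbtb38* and *Zbtb41*, and these 3 were higher, against 37.9% of all coding rows. The column is incomplete, as *Zbtb3*, *Zbtb32* and *Zbtb39* lack this entry but are also described as zinc finger genes. Of these, *Zbtb3* and *Zbtb32* were lower, so nothing is read from the entry.

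A SCAN domain, which pairs such factors with each other, was named for 3 genes. *Zfp110* is given above. *Zscan21*, also known from granule neurons of the cerebellum, had 8.93 in wild-type against 7.77 in *Ctcf*-cKO, a difference of -1.16. *Zfp449* on the X chromosome had 5.79 and 6.86, a difference of 1.07.

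The domain column names C2H2 fingers without KRAB, BTB/POZ or SCAN for 6 genes. Of these 4 were lower, beside 62.1% of all coding rows. *Zfp72* (chromosome 13, 74371426 to 74376566, minus strand) had 8.92 in wild-type against 7.50 in *Ctcf*-cKO, a difference of -1.42. *Zfp35*, known from mouse spermatocytes, had 8.70 and 7.45, a difference of -1.25. *Zfp217*, a component of corepressor complexes, had 8.86 and 7.83, and *Zfp105*, also studied in testis, had 9.06 and 8.04. These differences of -1.03 and -1.02 are among the smallest on the lower side. The 2 higher genes were *Zfp275*, with 7.60 and 9.04 (a difference of 1.44), and *Zfp146*, whose protein consists almost wholly of fingers, with 7.36 and 8.39.

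For 14 of the 35 genes the domain column names no C2H2 finger, and 9 of these were lower, beside 62.1% of all coding rows. A missing entry does not show that the protein lacks such fingers. The column names no domain at all for 7 genes. *Zfp389* is one of them, and RefSeq classes it as a transcribed pseudogene. Its signal averaged 9.11 in wild-type against 6.96 in *Ctcf*-cKO, and its row spans 21504316 to 21506524 on the minus strand of chromosome 13. *Zfp572*, the other RefSeq pseudogene, had 5.95 and 4.94. A pseudogene can share probe sequence with related genes, so which transcripts gave these 2 signals is uncertain.

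The other genes with no named domain were 3 lower and 2 higher. *Zfp474* had 8.61 in wild-type against 7.11 in *Ctcf*-cKO, a difference of -1.50, second to *Zfp389*. *Zfp654* had 9.35 and 7.94, a difference of -1.41, and *Zfp821* had 9.26 and 8.19, a difference of -1.07. On the higher side, *Zfp280c* had 7.26 and 8.59, and *Zfp532* had 6.82 and 7.92, so their differences were 1.33 and 1.10.

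Among the genes with another domain named, *Zfp541* has an ELM2 domain, the kind that binds histone deacetylase complexes, and is required in male germ cells at the end of meiotic prophase. Its signal averaged 9.29 in wild-type against 7.91 in *Ctcf*-cKO, a difference of -1.38, at 16071921 to 16096328 on the plus strand of chromosome 7. *Zfp385b*, with fingers of a kind that binds double-stranded RNA, had 7.07 and 8.15, a difference of 1.08.

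*Zfp36l1* had the largest difference on the higher side, with 7.81 in wild-type against 9.27 in *Ctcf*-cKO. Its protein has CCCH fingers, binds AU-rich elements of messenger RNA and promotes their decay, so the leading higher gene is by its known role no transcription factor. It lies on chromosome 12 at 80107760 to 80113013 on the minus strand. The 250 bases before its RefSeq start, chr12:80113014-80113263 on the minus strand of GRCm38.p6, are shown as the start of the leading higher gene, 5′ to 3′ on the strand of the gene, with each of the 10 CG in capitals.
*Zfp36l1*: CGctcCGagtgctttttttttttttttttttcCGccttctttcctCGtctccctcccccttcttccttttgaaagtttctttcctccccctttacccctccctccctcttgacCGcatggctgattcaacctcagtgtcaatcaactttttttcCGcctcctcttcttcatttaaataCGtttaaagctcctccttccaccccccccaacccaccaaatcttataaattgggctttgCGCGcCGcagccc

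Closest to the table's limit on the lower side were *Zfp572* (-1.01), *Zfp105* (-1.02) and *Zfp217* (-1.03), and on the higher side *Zfp146* (1.03), *Zfp449* (1.07) and *Zfp385b* (1.08). Genes just outside the limit have no row.

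Links to the germ line were read from a list and from the annotation columns of the table. Of 22 zinc finger genes listed from work on testis or germ cells, 7 had a row, 5 of them lower (*Zfp541*, *Zfp35*, *Zscan21*, *Zfp37* and *Zfp105*) and 2 higher (*Zbtb20* and *Zfp36l1*). Of all coding rows, 62.1% were lower, so that the split of these 7 by direction is near the background. A coding row was found for 14.3% of all RefSeq protein-coding genes and for 6.78% of those with these prefixes. The list was chosen with earlier results of these data known, so nothing is read from how many of its genes had a row. In the table's Gene Ontology column, spermatogenesis was given to 6 of the 17 lower zinc finger genes with a process term (35.3%), which are these 5 and *Zfp39*. Among all lower coding rows with a process term the share was 6.94%. None of the 16 higher zinc finger genes carried it, and 1.70% of all higher coding rows did. In the UniGene column, testis was named for 18 of 19 lower zinc finger genes (94.7%) against 94.5% of all lower coding rows with an entry. The same column named testis for 8 of 15 higher zinc finger genes (53.3%), against 80.4% of all higher coding rows. These annotations were made from other work and not from the arrays. The spermatocyte and spermatid markers with a row were lower, and the somatic markers with a row and *Kit* were higher. The part of these shifts in the split was not tested.

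Zinc finger transcription factors under other names gave 6 rows from a list of 62 genes, 2 lower and 4 higher. Beside these counts stand 14.3% of all RefSeq protein-coding genes with a coding row and 37.9% of coding rows that were higher. *Zfy1* and *Zfy2*, Y-linked factors with roles in spermatogenesis, had 7.32 and 7.31 in wild-type and 5.98 and 5.92 in *Ctcf*-cKO. Among the 4 higher genes, *Wt1*, a Sertoli cell factor, had 8.43 and 10.02, and *Klf6* had 6.99 and 8.69. *Zeb2* differed by 1.37 and the X-linked *Zxdb* by 1.08. *Wt1* also stands on the Sertoli marker list.

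The X chromosome carried 3 of the 35 genes, and all 3 were higher, with differences of 1.07 for *Zfp449*, 1.33 for *Zfp280c* and 1.44 for *Zfp275*. Of all 375 coding rows of the X chromosome, 47.5% were higher.

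How many zinc finger genes of the genome reached the table was counted against RefSeq. It holds 472 protein-coding genes with these prefixes, of which 32 had a coding row under the same symbol (6.78%), against 3122 of all 21900 protein-coding genes (14.3%). The share was 3.39% in either direction, against 7.94% lower and 6.32% higher over all protein-coding genes. By prefix, 25 of 400 Zfp genes, 6 of 41 Zbtb genes and 1 of 16 Zscan genes had a row, and 0 of 11 Zkscan, 0 of 3 Zfhx and 0 of 1 Znf genes. Probe sets that were tested but did not pass are not in the table, so a gene that was not listed may have been unchanged, dim or not measured, and these shares were not tested against each other.

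The arrangement along the chromosomes was examined because KRAB genes lie in clusters. A run was taken as at least 3 neighbouring genes, each starting within 500 kb of the end of those before it. The 35 listed genes formed 0 runs under this rule. The protein-coding genes with these prefixes in RefSeq formed 38 runs with 267 genes, the largest with 24. Among these protein-coding genes, 9 of the 38 runs held a listed gene, that is one with a coding row, and 29, with 182 genes, held none. Non-coding rows were not counted here. The row of *Zfp389*, which RefSeq classes as a pseudogene and which is therefore not counted among them, lies within the span of a run of 6 such genes on chromosome 13 (21362820 to 21960791) that is 1 of the 29. In all, 12 of the 267 protein-coding genes in runs were listed, and 20 of the 205 genes outside them. Over all protein-coding genes with these prefixes 6.78% had a coding row, and over all RefSeq protein-coding genes 14.3%. A gene that was not listed may have been unchanged, dim or not measured, so nothing is read from the counts in and outside runs. Among the 8 runs of at least 10 genes, 4 had no listed gene, with 64 genes between them. The largest of these, with 24 genes, lies on chromosome 13 at 66670274 to 67827000.

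**Figure D3:**
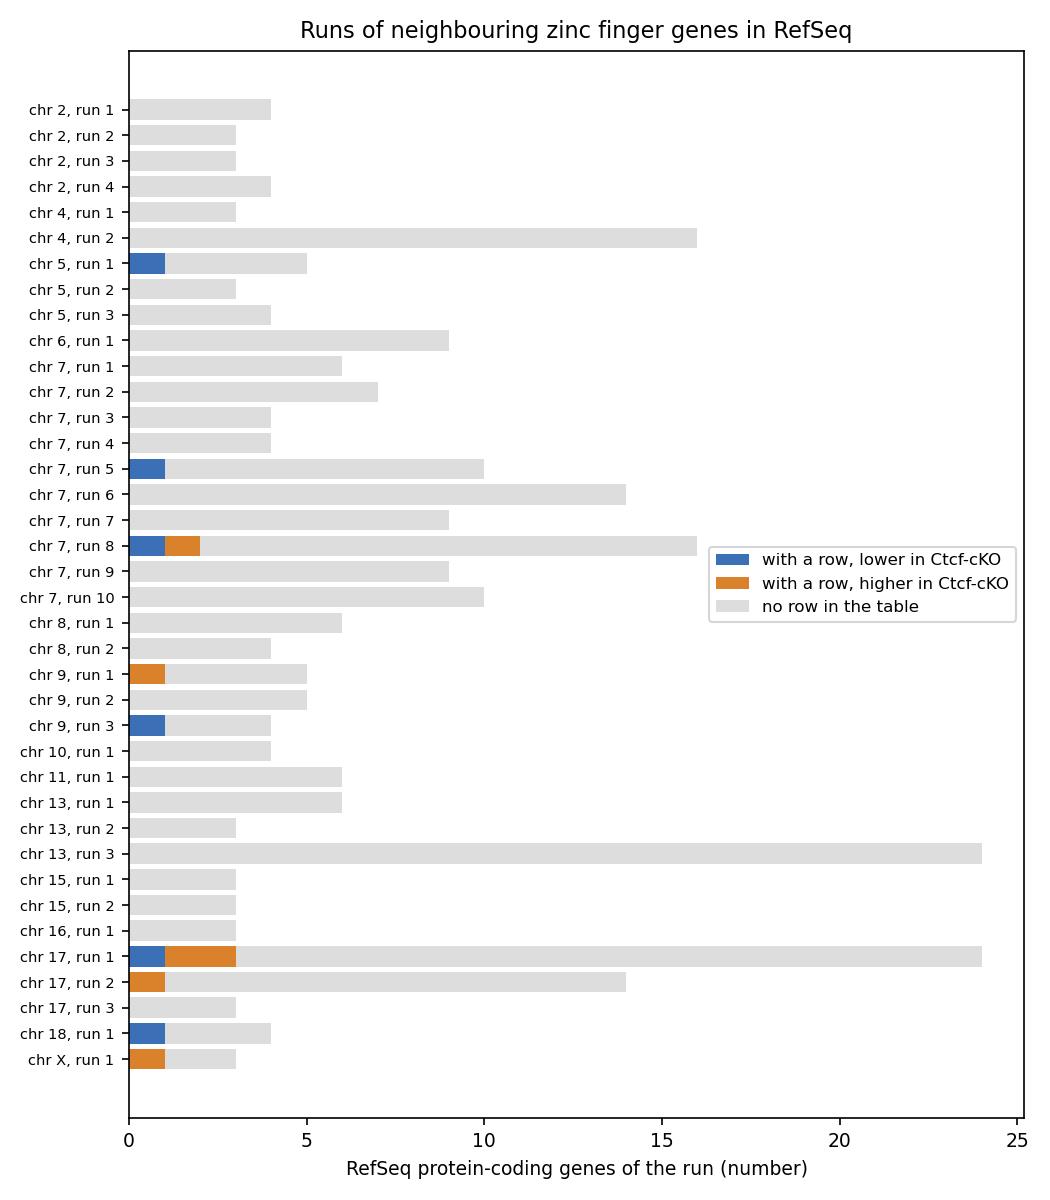
Number of RefSeq protein-coding zinc finger genes in each of the 38 runs of neighbouring genes, with the part that had a coding row in the table marked by direction. Non-coding rows are not counted. Only the run on chromosome 17 with 24 genes had 3 listed protein-coding genes, and 29 runs had none, with the pseudogene *Zfp389*, within the span of chromosome 13 run 1, not counted.

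The run with most listed genes was on chromosome 17 and has 24 genes over 2.6 Mb, from 21008941 to 23611019. *Zfp948*, *Zfp943* and *Zfp945*, all with KRAB, had rows there, in this order along the chromosome. Their differences were 1.43, -1.05 and 1.26, so that the middle one went against its neighbours. Between the rows of *Zfp948* and *Zfp943* lay 374 kb with 6 zinc finger genes of RefSeq, and between *Zfp943* and *Zfp945* 776 kb with 5. The row of *Zfp943*, at 21962552 to 22071168, also covers the coding gene *Gm7052* on the opposite strand, which had 8.57 in wild-type against 7.14 in *Ctcf*-cKO.

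**Figure D4:**
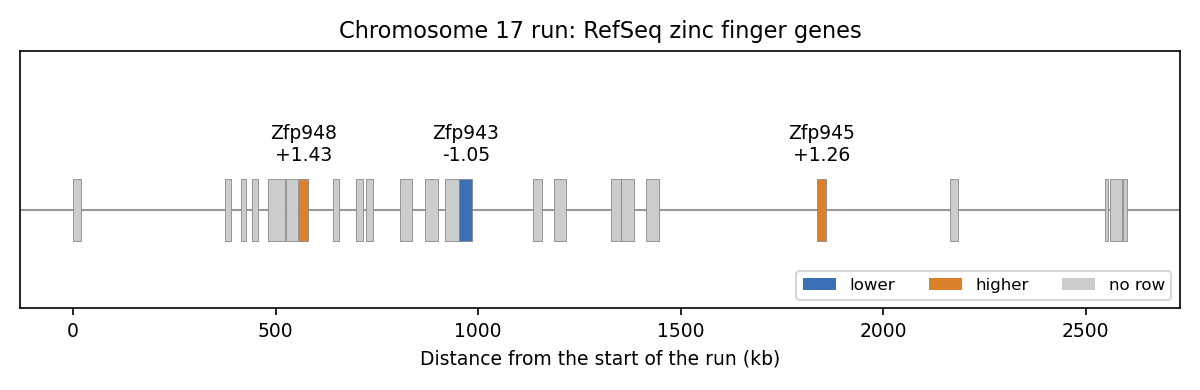
The 24 RefSeq zinc finger genes of the chromosome 17 run by distance in kb from the start of the run, with the difference in average log2 signal (*Ctcf*-cKO minus wild-type) for the genes with a row. Only *Zfp948* (1.43), *Zfp943* (-1.05) and *Zfp945* (1.26) had one, and unlisted genes stood on every side of them.

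The 250 bases before the RefSeq starts of the 3 genes are shown to set the lower gene of the cluster beside its higher neighbours. All are from GRCm38.p6, 5′ to 3′ on the strand of the gene, with CG in capitals. *Zfp943*, the lower gene, has 17 CpG at chr17:21962309-21962558 on the plus strand. *Zfp948* has 7 at chr17:21566728-21566977 on the plus strand and *Zfp945* has 5 at chr17:22867135-22867384 on the minus strand. The medians were 11 over the lower and 9 over the higher zinc finger genes with a window. Over all coding genes with a window they were 5 for the lower and 13 for the higher. A link between CpG number and direction was not tested, and nothing is read from these 3 genes.
*Zfp948*: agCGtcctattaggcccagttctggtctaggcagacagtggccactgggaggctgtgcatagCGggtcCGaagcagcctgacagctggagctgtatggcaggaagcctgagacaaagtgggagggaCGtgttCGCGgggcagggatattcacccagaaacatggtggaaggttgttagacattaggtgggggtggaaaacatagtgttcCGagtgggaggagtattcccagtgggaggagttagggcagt
*Zfp943*: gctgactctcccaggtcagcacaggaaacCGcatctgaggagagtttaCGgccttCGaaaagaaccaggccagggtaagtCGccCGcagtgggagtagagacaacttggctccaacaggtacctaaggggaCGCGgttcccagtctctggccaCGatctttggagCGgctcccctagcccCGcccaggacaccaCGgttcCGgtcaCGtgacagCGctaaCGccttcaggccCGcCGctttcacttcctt
*Zfp945*: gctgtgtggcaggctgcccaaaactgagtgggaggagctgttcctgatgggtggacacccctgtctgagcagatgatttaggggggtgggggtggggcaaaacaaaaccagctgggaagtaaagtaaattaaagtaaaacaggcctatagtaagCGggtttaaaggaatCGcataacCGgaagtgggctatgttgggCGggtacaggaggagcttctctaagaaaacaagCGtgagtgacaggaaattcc

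A further pair lay in a run of 16 genes on chromosome 7 (29768552 to 30602819) that held 2 listed genes. *Zfp146* (1.03) and *Zbtb32* (-1.29) were 420 kb apart there, with no RefSeq protein-coding gene of these prefixes between them. They differed in direction, and 3 listed coding rows lay in the gap. Apart from these and the 3 genes on chromosome 17, no neighbouring listed zinc finger genes were within 1000 kb.

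The nearest listed coding neighbour of a zinc finger gene, of whatever kind, had the same direction for 23 of 35 genes (65.7%), against 65.4% over all coding rows. *Zbtbd6* and its relative *Kbtbd7*, 20.8 kb apart, were both lower, the latter with a difference of -1.03 (8.18 in wild-type, 7.15 in *Ctcf*-cKO). *Zfp389* and *Nkapl* (9.42 and 7.98), a gene expressed in male germ cells, were 35.8 kb apart and both lower. Opposite directions also occurred at short distance. *Zbtb41* was higher, while *Aspm*, a spindle protein gene 1766 bases away, had a difference of -1.11 (7.21 and 6.10).

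Other rows of the table overlapped 7 of the zinc finger genes. Of 8 non-coding rows, 7 had the direction of the gene they overlapped. All 5 on the strand of the gene did, at *Zfp286* (-1.36), *Zfp943* (-1.28), *Zfp385b* (1.28), *Zfp532* (1.01) and *Zbtb20* (1.09). Whether they read the transcript of the gene itself was not tested. Overlaps were counted at zinc finger genes only, with no share over all coding rows, so nothing is read from these counts. On the opposite strand, *Gm12256* at *Zfp39* had 8.59 in wild-type against 7.50 in *Ctcf*-cKO, and an unnamed row at *Zfp37* had 6.48 and 5.32. The exception was *4932412D23Rik* on the opposite strand, whose row overlaps *Zbtb20* at the 5′ ends of both and extends away from that gene. It had 7.06 and 5.64, a difference of -1.42, where *Zbtb20* was higher by 1.20.

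The start sites of 26 of the 35 genes, 12 lower and 14 higher, had a window in the RefSeq table, and the 250 bases before each start were read. For 4 of them (*Zfp217*, *Zfp385b*, *Zbtb38* and *Zbtb20*) the nearest window lay over 1 kb from the 5′ end of the row, so it may belong to another start. The lower zinc finger genes had a median of 11 CpG (range 1 to 26), whereas the 1484 lower coding genes with a window had a median of 5. The higher zinc finger genes had a median of 9 (range 3 to 38), whereas the 1119 higher coding genes had 13. The 487 windows of all genes with these prefixes had a median of 11, and all 32851 windows one of 6. The lower zinc finger genes with fewest CpG were *Zfp72* (1) and *Zfp541* (2), and that with most was *Zfp821* (26).

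**Figure D5:**
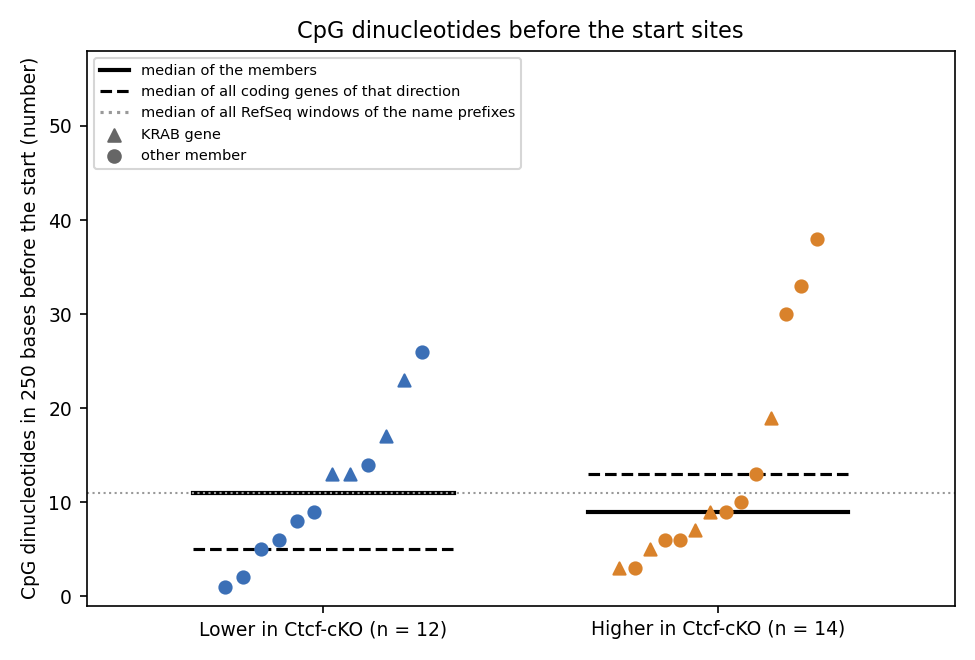
Number of CpG in the 250 bases before the RefSeq start of the lower and higher zinc finger genes, 1 point per gene (triangles for KRAB genes), with bars for their medians, dashed lines for the medians of all lower and all higher coding genes and a dotted line for all windows of these prefixes. The zinc finger medians are 11 (12 lower genes) and 9 (14 higher genes), and those of all coding genes 5 (lower) and 13 (higher).

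Short motifs were searched in the same windows on both strands, and a match is only a match of letters. The core of the CTCF motif was searched as CCA, any 2 bases, AG, any 2 bases and GGC. It was in 0 of the 26 windows, in 2.26% of the windows of all genes with these prefixes and in 2.07% of all windows. At such shares 26 windows are too few to read anything from the 0. CTCF binding was not examined here, whereas the paper used CTCF ChIP-seq data of round spermatids over wider promoter and upstream regions. The GC box GGGCGG was in 14 (53.8%), against 41.5% of the windows of these prefixes and 32.7% of all windows. The CCAAT box CCAAT was in 10 (38.5%), which lies between the 43.5% of the windows of these prefixes and the 33.8% of all windows. The CCAAT box was in 7 of 12 windows of lower genes and 3 of 14 of higher genes. Over all lower and all higher coding genes with a window its shares were 36.1% and 36.8%, and the split was not tested. *Zbtb3* and *Zbtb32* had 4 matches each and *Zfp39* and *Zfp72* 3 each. The TATA box TATAAA was in 4 windows (15.4%), against 7.80% of the windows of these prefixes and 12.4% of all windows. By direction, the GC box was in 7 of 12 windows of lower and 7 of 14 of higher genes, and the TATA box in 2 of each. The cAMP response element TGACGTCA, bound by the spermatid factor CREM, was in the window of *Zfp266* alone, against 3.49% of the windows of these prefixes and 1.55% of all windows. Matches of different motifs may overlap and were counted separately.

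The rows counted as coding belong to 2 classes of the table, Coding and Complex, which the sources used here do not define. Of the 10 zinc finger genes of class Coding 9 were lower, with *Zfp449* as the exception, and of the 25 of class Complex 10 were lower. Over all coding rows 75.9% of class Coding and 49.5% of class Complex were lower. The lower zinc finger genes had 30 to 182 probes (median 70) and the higher ones 40 to 688 (median 148), close to the medians of 75 and 150 over all lower and all higher coding rows. The part of the class and of the number of probes in the directions was not tested.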

How the data were processed

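Seminiferous tubule RNA (150 ng per array; 4 *Ctcf*-cKO and 3 wild-type mice) was measured on mouse transcriptome arrays, which read the probes of a transcript together. Per the labels, the submitters' processing notes name Affymetrix Expression Console 1.4.1, RMA, Transcriptome Analysis Console 3.0 and the build mm10. The authors deposited log2 signals only as a bi-weight average per genotype, for rows past a linear fold of 2 and a p of 0.05, which favours rows whose measured difference came out large. The smallest difference in the table was 1.00. Columns of single arrays numbered 0 (0 columns went unmapped), so no test, SD or p-value was computed. The deposited fold, analysis of variance p and adjusted p are the authors' own comparison and were not used.

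From the averages, differences, counts and medians were computed with Python 3.11.15, numpy 2.4.6, pandas 2.3.3 and matplotlib 3.10.9. Genes were taken by the first symbol of rows of class Coding or Complex, with KRAB read from the protein domain column. Names, gene types and start windows came from RefSeq tables of GRCm38.p6, which holds the coordinates of mm10; 34 genes matched on the current symbol and 1 on an older name, and all 35 rows overlapped their RefSeq gene. Protein sequences were not used here. Genes were named by rule: the 8 largest differences per direction among KRAB and among other genes, genes in runs, genes studied in testis, the 3 nearest the limit per direction, genes with no C2H2 finger named, and listed genes of the partner lists. The members, lists and rules were chosen with earlier results of these data known. The functions passed 7 of 7 checks on made data. Alternatives changed the fold, the signal, the class, the domain rule, the counting of rows and symbols and the gap of a run.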

Additional observations from a re-analysis of the deposited data

How the results depend on the processing

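The limits come first from the table: rows were selected by fold and p and hold averages only, so leaving out mice, limma and a replicate block were not run, and finger counts of the proteins were not run either. No paired analysis was possible because the columns carry no replicate. A shift of all rows smaller than 1.01 on the log2 scale would leave every zinc finger gene on its side, and no re-centring was run. Past a fold of 3, there were 1 lower and 0 higher genes (KRAB 0 and 0, other genes 1 and 0), by construction fewer. With class Coding alone the counts were 9 lower and 1 higher (KRAB 1 and 0, other genes 8 and 1). With a C2H2 domain required, 10 were lower and 11 higher. With a gap of 1000 kb there was 1 run of listed genes, the 3 on chromosome 17, and 0 with 200 kb. The other alternatives kept each count within 1.5 times. A signal of at least 6 gave 18 lower and 16 higher, and protein-coding genes of RefSeq alone, an alternative chosen after seeing the data, gave 16 and 16.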

Other observations

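Non-coding rows of the table carried 3 symbols of the same form, which were not counted among the 35 genes because the table does not class them as coding. *Zfp456* on chromosome 13 (67360671 to 67365679, plus strand) had 5.99 in wild-type against 4.62 in *Ctcf*-cKO, a difference of -1.37. *Zfp85os*, named as an opposite-strand transcript of *Zfp85*, lies on the same chromosome at 67729262 to 67756838 on the plus strand and had 6.47 and 5.12, a difference of -1.35. Both lie within the span of the chromosome 13 run of 24 zinc finger genes that had no listed coding row. *Zbtb8b* on chromosome 4 (129441051 to 129446968, minus strand) had 6.17 and 7.30, a difference of 1.13. It lies within the span of a run of 3 zinc finger genes (129335532 to 129446969) that also had no listed coding row.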
